A study of Mus musculus with 12 samples.

Results

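The SOCS and JAK-STAT feedback genes described here were 10 genes taken by symbol: Socs1, Socs2, Socs3, Cish, Jak1, Jak2, Jak3, Tyk2, Stat3 and Pim1. All 10 were present once in each of 2 deposited mouse count tables, 1 for retina with 32285 genes and 1 for cultured cells with 55401 genes. All 10 passed the low-count filter in both, among 15440 genes tested in the retina and 16975 in the cultures. The retina groups, all labelled wild type, were optic nerve crush (ONC) given stem cell vesicles (ONC+i.o.MSC.sEV, small extracellular vesicles of mesenchymal stem cells; i.o. is not spelled out) and ONC+PBS, phosphate-buffered saline, both at day 1. The other groups, also labelled wild type, were brain microvascular pericytes given MSC.sEV or PBS for 12 hours. Each of the 4 groups had 3 libraries, 12 in all. Every retina group had the crush, so the retina comparison was of vesicles on top of injury.

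Retina columns carried only the short names CTR and M, which were read as PBS and vesicles by inference, and the direction of every retina difference rests on that reading. If CTR stood for uninjured retina, each retina difference would also hold the effect of the crush. The labels used here give no age, strain or number of animals, and do not say whether libraries came from separate animals or cultures. The p-values then measure the spread between these libraries, which may be technical. Library totals were 15580024 to 16842926 counts in the retina and 33001248 to 37954077 in the cultures. Levels are in CPM, a gene's counts scaled to a common library total with TMM factors, within each table. In the cultures, the 12 pericyte and mural markers summed to 704 to 718 CPM with vesicles and 674 to 717 CPM with PBS, mostly from Acta2, at means of 587 and 572 CPM. Cspg4 was at 17.5 and 11.9 CPM and Notch3 at 18.6 and 25.0 CPM. Of the same list, Kcnj8 had 8 counts over the vesicle libraries and 8 over the PBS libraries, Abcc9 had 6 and 0, and Des had 1 and 0. Pdgfrb was at 65.2 to 74.1 CPM with vesicles and 56.2 to 63.1 CPM with PBS. The 8 astrocyte markers summed to 1811 to 1868 CPM with vesicles and 1829 to 1853 CPM with PBS. Among them Aqp4 had a mean of 623 CPM with vesicles and 477 CPM with PBS, while S100b had 8.45 and 11.5 CPM. Rgs5, another pericyte marker, was at 0.891 CPM with vesicles and 0.283 CPM with PBS. Fibroblast markers summed to 1707 to 1998 CPM with vesicles and 1789 to 1945 CPM with PBS, mostly from Fn1 (means of 1386 and 1348 CPM). Oligodendrocyte lineage markers summed to 420 to 477 CPM with vesicles and 558 to 579 CPM with PBS. With markers of several kinds present, the cells are called pericyte-labelled below.

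Cytokine receptors that lack a kinase of their own bind the Janus kinases Jak1, Jak2, Jak3 and Tyk2, which phosphorylate STAT transcription factors. Stat3 is the main STAT downstream of interleukin-6 family cytokines, and STAT proteins in turn switch on genes whose products damp the pathway. Those products include Socs1, Socs2, Socs3 and Cish, which bind the receptor or the kinase through an SH2 domain and recruit a ubiquitin ligase through a SOCS box. In the injured retina and optic nerve, Socs3 is known as a brake on axon regeneration, and Stat3 as a factor of reactive glia and injured neurons.

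Promoters of the 2 feedback genes whose windows held a STAT-type motif are shown, since one of them rose in both comparisons and the other was called in the retina. The motif searched was TTCNNNGAA, which reads the same on both strands, so matches on the strands coincide. It was sought in RefSeq windows of 300 bases (GRCm38.p6), 250 before to 50 after the annotated start, of which 9 of the 10 genes had at least 1. It matched in 2 of these 9 genes and in 8.3% of all 32851 windows, and 0.457% of windows held 2 or more matches. Capitals mark the motif. The Socs3 window lies at chr11:117969317-117969616 on the minus strand and the Cish window at chr9:107296409-107296708 on the plus strand.
Socs3: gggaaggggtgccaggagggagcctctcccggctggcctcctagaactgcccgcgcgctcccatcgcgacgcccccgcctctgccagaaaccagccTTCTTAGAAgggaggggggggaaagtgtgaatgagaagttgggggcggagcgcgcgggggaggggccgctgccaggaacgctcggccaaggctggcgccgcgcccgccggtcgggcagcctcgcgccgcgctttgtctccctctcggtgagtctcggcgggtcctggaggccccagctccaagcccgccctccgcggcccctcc
Cish: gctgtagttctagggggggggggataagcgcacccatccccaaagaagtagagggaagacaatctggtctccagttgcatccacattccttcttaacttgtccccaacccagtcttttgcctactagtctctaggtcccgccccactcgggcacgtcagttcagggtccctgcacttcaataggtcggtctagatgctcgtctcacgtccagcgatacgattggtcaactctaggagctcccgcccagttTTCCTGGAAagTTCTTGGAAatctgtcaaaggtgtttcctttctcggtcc
The Socs3 match began at position -154 from the annotated start. The pair of Cish matches began at positions 1 and 12, counted with the start base as 1. Windows of Socs1, Jak1, Jak2, Jak3, Tyk2, Stat3 and Pim1 held no match. Socs2 had no window in the table. A match is a run of letters and not a shown binding site.

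In the crushed retina, 8 of the 10 genes were higher with vesicles and 0 were lower, with edgeR's quasi-likelihood test and Benjamini-Hochberg adjustment over all genes tested. Of all tested genes, 10.7% were called higher and 5.19% lower. The 10 genes and the lists below were chosen with earlier results of these data known, so such shares only describe them. The same 8 genes had no overlap between the groups, which was so for 35.7% of all tested genes. Their changes ran from 1.56-fold for Jak2 to 19.4-fold for Socs3, and the 2 others, Jak1 and Tyk2, were not called. The median log2 fold change was 1.58 for the 10 genes and -0.02 for all tested genes. In whole tissue, more cells of a type and more RNA per cell cannot be told apart.

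**Figure D1:**
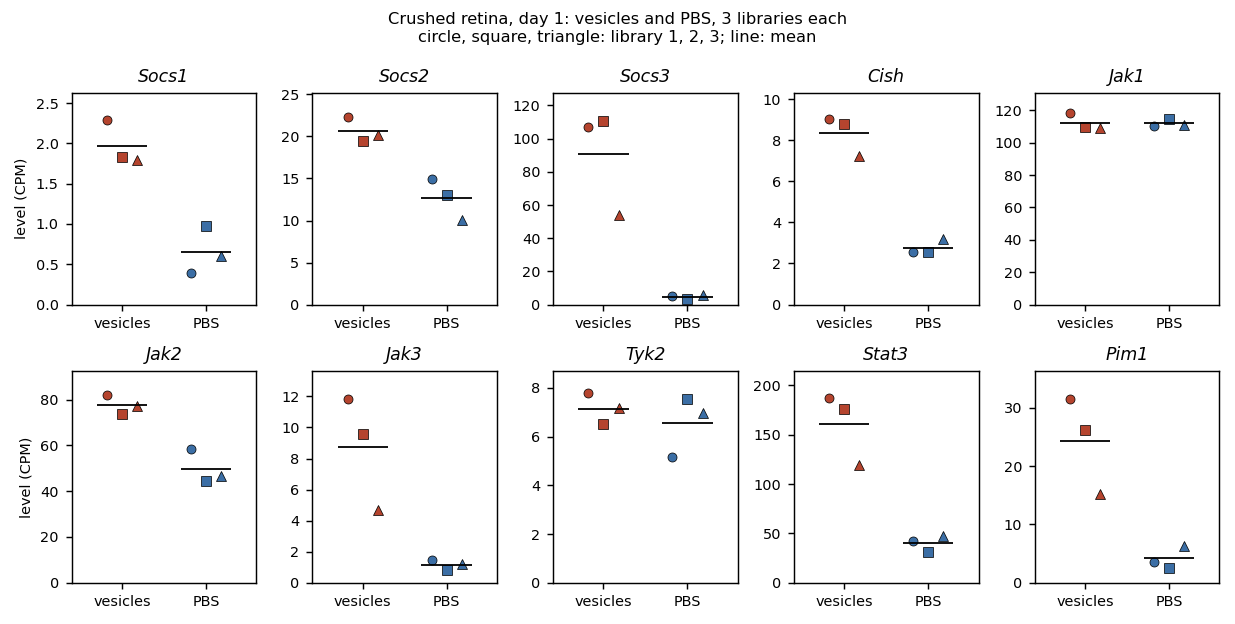
Level in CPM (y axis) of each of the 10 genes in the crushed retina, with the 3 vesicle libraries left and the 3 PBS libraries right; symbols mark libraries 1, 2 and 3 and the line is the mean. Vesicle library 3 was the lowest of its group for Socs3 (54.0 CPM), Stat3, Pim1, Jak3, Cish and Socs1, and still above all PBS libraries. It was also the lowest for Jak1, whose groups overlapped.

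Socs3 (ENSMUSG00000053113), which inhibits signalling from gp130 receptors, stood at 107, 111 and 54.0 CPM in vesicle libraries 1, 2 and 3, against 5.16, 3.34 and 5.47 CPM with PBS. The lowest vesicle library was well above the highest PBS library. The log2 fold change was 4.28 ± 0.36 (SE, adjusted p = 0.00111), a 19.4-fold rise. Pim1 (ENSMUSG00000024014), a survival kinase encoded by a STAT target gene, had 31.6, 26.3 and 15.3 CPM with vesicles, against 3.59, 2.61 and 6.31 CPM with PBS. The groups did not overlap, and the log2 fold change was 2.54 ± 0.39 (adjusted p = 0.00637).

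Cish (ENSMUSG00000032578), a SOCS protein best known downstream of STAT5, had 9.05, 8.79 and 7.22 CPM with vesicles, against 2.55, 2.55 and 3.18 CPM with PBS. It was even within each group, with a log2 fold change of 1.59 ± 0.23 (adjusted p = 0.00189). Socs1 (ENSMUSG00000038037), which binds the kinases directly and limits interferon signalling, was the scarcest of the SOCS genes. It had 36, 29 and 29 reads in the vesicle libraries, which is 2.29, 1.83 and 1.79 CPM, against 6, 16 and 10 reads with PBS, 0.392, 0.973 and 0.601 CPM. The groups did not overlap (log2 fold change 1.57 ± 0.41, adjusted p = 0.029), but the call was lost without vesicle library 1 (adjusted p = 0.112) or 2 (0.0719) and without PBS library 1 (0.0776) or 3 (0.0813). Socs2 (ENSMUSG00000020027), a brake on growth hormone signalling, had 22.3, 19.5 and 20.1 CPM with vesicles, against 14.9, 13.0 and 10.03 CPM with PBS. Its change was smaller (log2 fold change 0.71 ± 0.17, adjusted p = 0.0186), and the call was lost without vesicle library 1 (0.0801) or PBS library 2 (0.0653).

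Of the 4 Janus kinases, Jak2 and Jak3 rose. Jak3 (ENSMUSG00000031805), which pairs with the common gamma chain of lymphocyte and myeloid cytokine receptors, had 11.8, 9.61 and 4.69 CPM with vesicles, against 1.44, 0.851 and 1.20 CPM with PBS. All vesicle libraries were above all PBS libraries (log2 fold change 2.90 ± 0.39, adjusted p = 0.00136). Jak2 (ENSMUSG00000024789), the kinase of homodimeric and interferon-gamma receptors, had 82.2, 73.5 and 77.2 CPM with vesicles, against 58.2, 44.4 and 46.7 CPM with PBS. It rose 1.56-fold (log2 fold change 0.64 ± 0.12, adjusted p = 0.00592). Jak1 (ENSMUSG00000028530), which serves gp130, interferon and gamma-chain receptors, had 118, 110 and 109 CPM with vesicles, against 110, 115 and 111 CPM with PBS. These values overlapped fully, with a log2 fold change of 0.01 ± 0.08 (adjusted p = 0.969). Tyk2 (ENSMUSG00000032175), a partner kinase of type I interferon and interleukin-12 receptors, had 7.77, 6.51 and 7.16 CPM with vesicles, against 5.16, 7.54 and 6.97 CPM with PBS. It also overlapped (log2 fold change 0.12 ± 0.22, adjusted p = 0.738).

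Stat3 (ENSMUSG00000004040) had 187, 176 and 119 CPM in the vesicle libraries, against 42.2, 31.3 and 47.1 CPM in the PBS libraries. It was 4.004-fold higher with no overlap (log2 fold change 2.00 ± 0.21, adjusted p = 0.00129). Lens mRNAs differed widely between retina libraries, and vesicle library 2 and PBS library 1 were the richest in their groups. Without these 2 libraries 5 of the 10 genes were called, and Stat3 (log2 fold change 1.98, adjusted p = 0.0509), Pim1 (2.40, 0.108) and Socs1 (1.38, 0.121) were not.

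Leukocyte mRNAs moved with these genes. All 10 leukocyte markers rose in the retina. Their summed level was 569, 550 and 350 CPM in vesicle libraries 1, 2 and 3, against 70.2, 52.96 and 72.9 CPM with PBS. Neutrophil markers summed to 652, 809 and 369 CPM with vesicles, against 19.6, 13.7 and 25.5 CPM with PBS, and all 8 of the 10 that were tested rose. Monocyte and macrophage markers summed to 1090 CPM, 1076 CPM and 756 CPM with vesicles, against 93.2, 61.8 and 109 CPM with PBS, and 9 of 10 rose. Of 8 resting microglia markers 0 rose and 4 fell, and of 10 rod markers 0 rose and 6 fell. Glial markers moved both ways, with 2 higher and 1 lower of 10 Muller glia markers and 1 higher and 2 lower of 8 astrocyte markers. The sums of both glial lists overlapped between the groups. T and NK cell markers summed to 2.59 to 8.73 CPM with vesicles and 0.486 to 1.92 CPM with PBS, and none of the 10 passed the filter. Vesicle library 3 was the lowest of its group in leukocyte, neutrophil and monocyte and macrophage markers. It was also the lowest for Socs3, Stat3, Pim1, Jak3, Cish and Socs1, and for Jak1, which was not called. Lens markers (106 CPM, against 18716 and 75876 CPM in libraries 1 and 2) were lowest in it too. So were fibroblast markers (77.4 CPM, against 201 and 168 CPM). Retinal ganglion cell markers were highest in it (1111 CPM, against 849 and 769 CPM), and rod markers lay between those of libraries 1 and 2. For every 100 CPM of summed leukocyte markers, Jak3 had 2.08, 1.75 and 1.34 CPM with vesicles and 2.05, 1.61 and 1.65 CPM with PBS, so this ratio overlapped between the groups. The same ratio for Socs3 was 18.8, 20.1 and 15.4 with vesicles and 7.35, 6.31 and 7.50 with PBS, with no overlap. For Stat3 it was 33.0, 32.0 and 34.1 with vesicles and 60.2, 59.0 and 64.6 with PBS, lower without overlap. The ratio of Pim1 overlapped, at 5.56, 4.78 and 4.38 with vesicles and 5.12, 4.94 and 8.66 with PBS. Ratios of Socs1, Socs2, Cish, Jak1, Jak2 and Tyk2 were lower with vesicles, without overlap. Of the 10 genes, Socs3 alone had a higher ratio without overlap. The part of leukocytes in the rise of these genes was not tested.

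In the pericyte-labelled cultures, 6 of the 10 genes were higher with vesicles and 0 were lower, against 10.9% called higher and 8.9% called lower among all tested genes. The same 6 had no overlap between the groups, which held for 33.8% of all tested genes. They were Socs1, Socs3, Jak2, Tyk2, Stat3 and Pim1. The largest change was 2.64-fold, for Socs1. The median log2 fold change of the 10 genes was 0.35, and that of all tested genes was 0.00.

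**Figure D2:**
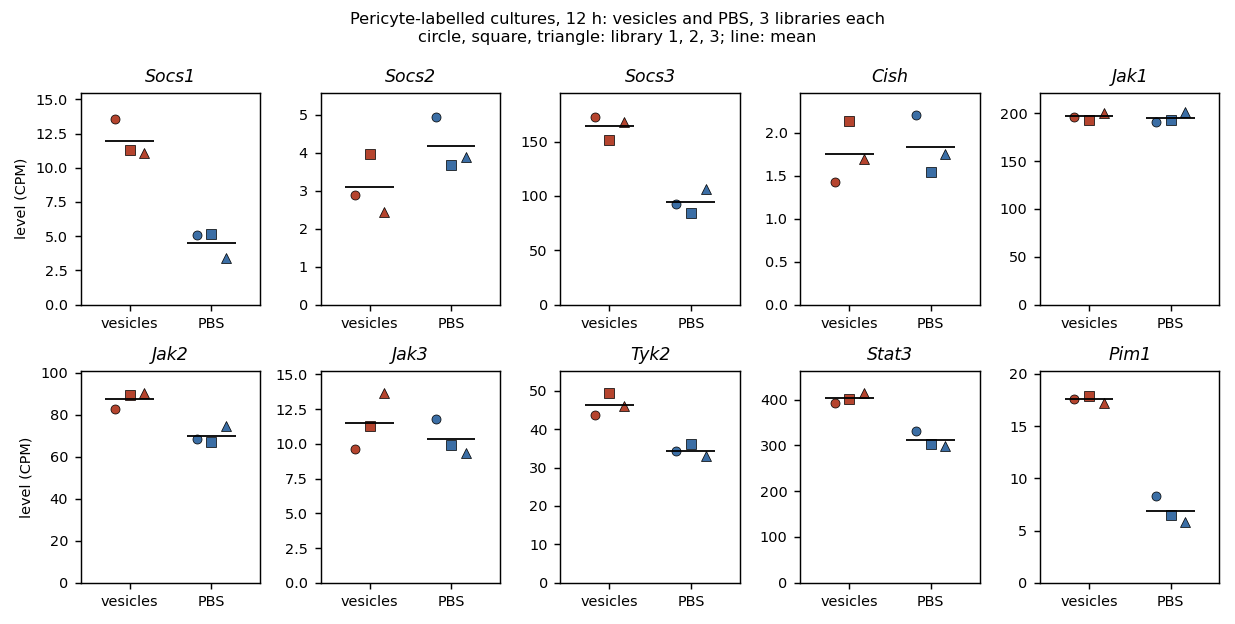
Level in CPM (y axis) of each of the 10 genes in the pericyte-labelled cultures, with the 3 vesicle libraries left and the 3 PBS libraries right; symbols mark libraries 1, 2 and 3 and the line is the mean. Socs1, Socs3 and Pim1 show the widest gaps, and Socs2, Cish, Jak1 and Jak3 overlap between the groups.

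Socs1 had 13.6, 11.3 and 11.1 CPM in the vesicle cultures, against 5.08, 5.14 and 3.38 CPM in the PBS cultures. The gap was wider than the spread of either group (log2 fold change 1.40 ± 0.16, adjusted p = 1.06e-06). Pim1 had 17.6, 17.8 and 17.2 CPM with vesicles, against 8.27, 6.48 and 5.83 CPM with PBS. It rose 2.55-fold (log2 fold change 1.35 ± 0.13, adjusted p = 6.73e-08). Socs3 had 173, 151 and 168 CPM with vesicles, against 92.4, 84.1 and 106 CPM with PBS. That was a 1.74-fold rise (log2 fold change 0.80 ± 0.07, adjusted p = 5.76e-08).

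Stat3 had 393, 402 and 415 CPM with vesicles, against 332, 303 and 300 CPM with PBS, a 1.29-fold rise without overlap (log2 fold change 0.37 ± 0.06, adjusted p = 6.19e-05). Tyk2 had 43.6, 49.3 and 46.1 CPM with vesicles, against 34.2, 36.1 and 32.9 CPM with PBS. It was 1.35-fold higher (log2 fold change 0.43 ± 0.07, adjusted p = 0.000206). Jak2 had 82.5, 89.5 and 90.5 CPM with vesicles, against 68.3, 66.9 and 74.4 CPM with PBS. It was 1.25-fold higher (log2 fold change 0.32 ± 0.06, adjusted p = 0.000806). These 3 changes were small and each lay beyond the spread of its libraries.

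Jak1 was at 196, 194 and 200.4 CPM with vesicles and 191, 193 and 201 CPM with PBS, fully overlapping (log2 fold change 0.01 ± 0.05, adjusted p = 0.908). Jak3 had 9.66, 11.3 and 13.7 CPM with vesicles, against 11.8, 9.95 and 9.34 CPM with PBS. It was not called (log2 fold change 0.16 ± 0.14, adjusted p = 0.511). Socs2 had 2.89, 3.97 and 2.45 CPM with vesicles, against 4.95, 3.685 and 3.89 CPM with PBS, overlapping values (log2 fold change -0.43 ± 0.22, adjusted p = 0.193). Cish was scarce, with 48, 78 and 63 reads with vesicles and 85, 52 and 65 reads with PBS (log2 fold change -0.07 ± 0.28, adjusted p = 0.919).

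Leukocyte mRNAs were also measured in these cultures. General leukocyte markers summed to 19.1 to 29.1 CPM with vesicles and 15.3 to 18.1 CPM with PBS, and 5 of 10 rose. Ptprc, the pan-leukocyte antigen CD45, was at 1.07 to 1.22 CPM with vesicles and 0.0519 to 0.386 CPM with PBS. S100a9, a neutrophil gene, and Cd3e, a T cell gene, were at 0 counts in all 6 libraries. Neutrophil markers together summed to 3.26 to 3.99 CPM with vesicles and 1.06 to 1.16 CPM with PBS. Most of that sum was Mmp9 alone, at means of 3.30 and 0.933 CPM, the only 1 of the 10 that was tested. Of the 10, 4 had no count in these libraries. Monocyte and macrophage markers summed to 185, 144 and 128 CPM with vesicles, against 99.1, 101 and 96.7 CPM with PBS, without overlap, and 2 of 7 tested rose. Among them Cd14, a lipopolysaccharide co-receptor, was at 42.9 CPM with vesicles and 14.4 CPM with PBS (adjusted p = 2.72e-09), and Lyz2 at 92.8 and 71.8 CPM was not called (adjusted p = 0.143). Ccr2, a receptor of blood monocytes, was at 0 in all 6 libraries. Resting microglia markers summed to 464 to 492 CPM with vesicles and 511 to 549 CPM with PBS, with 0 of 6 tested higher and 1 lower. Olfml3 (297 and 337 CPM) and Sall1 (138 and 145 CPM) made up most of that sum, while P2ry12 was at 0.311 and 0.444 CPM and Siglech at 0. The part of these cells in the changes was not tested.

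Set side by side, 5 genes were called higher in both comparisons, namely Socs1, Socs3, Jak2, Stat3 and Pim1. Socs2, Cish and Jak3 were called in the retina and not in the cultures, Tyk2 was called in the cultures and not in the retina, and Jak1 was called in neither. These lists do not by themselves show a difference, so the difference of the log2 fold changes, retina minus cultures, was tested in a joint limma fit over the 13712 genes tested in both tables. It called 12.2% of those genes, and 5 of the 10 genes here, all with the larger rise in the retina.

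**Figure D3:**
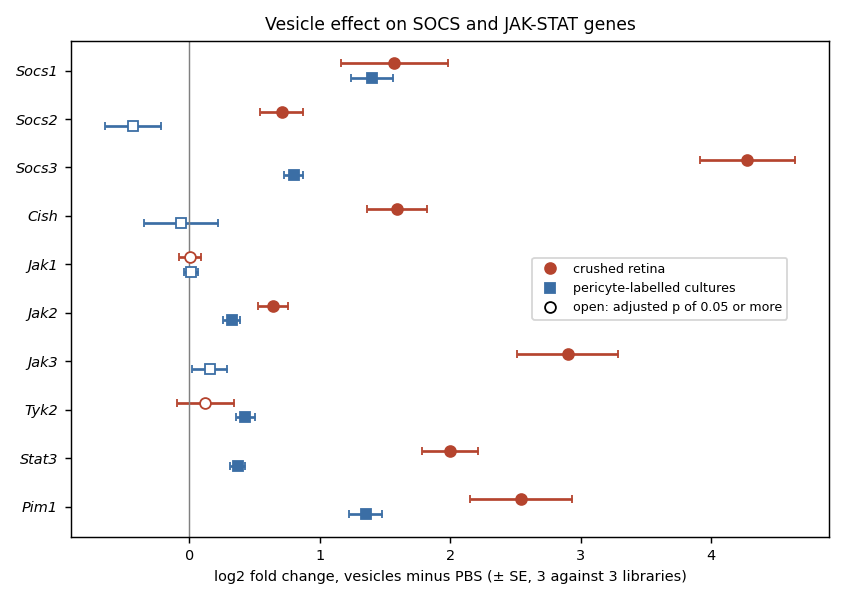
Log2 fold change, vesicles minus PBS (x axis, ± SE), of each gene in the crushed retina (circles) and in the pericyte-labelled cultures (squares), 3 libraries against 3; open symbols were not called. Socs3 has the widest gap between the comparisons (4.28 and 0.80), while Jak1 lies at 0.01 in both.

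Socs3 differed most, by 3.43 ± 0.58 on the log2 scale (SE, adjusted p = 0.00369). Jak3 differed by 2.65 ± 0.56 (adjusted p = 0.00402), Cish by 1.65 ± 0.37 (adjusted p = 0.00525) and Stat3 by 1.62 ± 0.20 (adjusted p = 0.000159). Socs2, with estimates of opposite sign, differed by 1.18 ± 0.28 (adjusted p = 0.00809). Pim1, at 1.20 ± 0.42, was not called (adjusted p = 0.0751), but was called without retina vesicle library 3 (1.45, adjusted p = 0.00318). Jak2, at 0.33 ± 0.13, was not called (adjusted p = 0.124), but was called without retina PBS library 1 (0.39, adjusted p = 0.0395). The differences of Socs1 (0.19 ± 0.58, adjusted p = 0.883), Tyk2 (-0.30 ± 0.25, adjusted p = 0.503) and Jak1 (-0.01 ± 0.09, adjusted p = 0.958) were not called. Tissue, injury, exposure time and sequencing table all differ between the comparisons and cannot be told apart.

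The order of the levels was read after division by exon length, as CPM per kilobase of all annotated exons (GENCODE M21), within each table. This length joins the exons of all annotated transcripts of a gene, 2.891 kb for Socs3 and 9.527 kb for Stat3. The transcripts in use may be shorter, so the order depends on that choice. In CPM, Stat3 was above Socs3 in every group. In vesicle-treated retina Socs3 led at 31.3 ± 10.97 CPM per kb (SD, n = 3), overlapping with Stat3 at 16.9 ± 3.83. Jak1 and Jak2, at 15.5 ± 0.736 and 15.4 ± 0.870, overlapped with each other and with Stat3. Pim1 followed at 7.26 ± 2.47, apart from its neighbours, then Socs2 (2.16 ± 0.155), Jak3 (1.63 ± 0.684), Cish (1.30 ± 0.154) and Tyk2 (1.04 ± 0.0919), each overlapping with the next, and Socs1 below them at 0.678 ± 0.0959. In PBS retina Jak1 led at 15.5 ± 0.344 CPM per kb, followed by Jak2 at 9.90 ± 1.47 and Stat3 at 4.22 ± 0.852, with ranges that did not touch. Socs3 (1.61 ± 0.397), Socs2 (1.33 ± 0.257), Pim1 (1.24 ± 0.569) and Tyk2 (0.955 ± 0.181) overlapped with their neighbours in that order. Cish stood apart below them at 0.430 ± 0.0571, and Socs1 and Jak3 closed the order at overlapping levels of 0.225 ± 0.101 and 0.217 ± 0.0550.

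**Figure D4:**
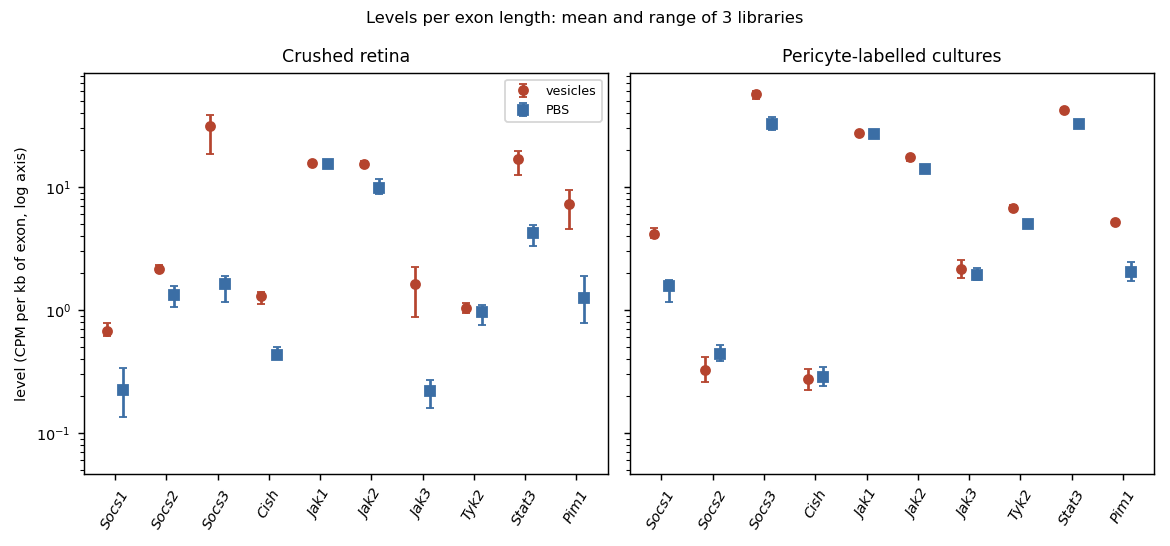
Level per exon length, in CPM per kb on a log axis, of each gene with vesicles (circles) and PBS (squares) in the crushed retina (left) and the pericyte-labelled cultures (right); points are means and bars the range of 3 libraries. With these lengths Socs3 tops both vesicle groups, at 31.3 in retina and 56.8 in the cultures, and the 2 tables are not on 1 scale.

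In the pericyte-labelled cultures, with the same lengths, Socs3 led with vesicles at 56.8 ± 3.91 CPM per kb, apart from Stat3 at 42.3 ± 1.17. With PBS, Stat3 at 32.7 ± 1.84 and Socs3 at 32.6 ± 3.90 overlapped at the top. Jak1 (27.2 ± 0.479 with vesicles, 27.0 ± 0.734 with PBS), Jak2 (17.4 ± 0.864 and 13.9 ± 0.793) and Tyk2 (6.75 ± 0.419 and 5.01 ± 0.233) came next in both groups. Pim1 (5.22 ± 0.0965), Socs1 (4.12 ± 0.473) and Jak3 (2.16 ± 0.374) were apart from each other with vesicles. With PBS, Pim1 (2.04 ± 0.376), Jak3 (1.94 ± 0.239) and Socs1 (1.56 ± 0.345) overlapped with their neighbours. Socs2 and Cish were the lowest in both groups, at 0.326 ± 0.0819 and 0.273 ± 0.0553 with vesicles and 0.438 ± 0.0715 and 0.286 ± 0.0525 with PBS.

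The genes whose profile was most like that of Socs3 over the 12 libraries, after centring log2 CPM within each table, were Glipr2 (Pearson r = 0.999), Cd53 (0.998), a leukocyte tetraspanin, and Wfdc17 (0.993). Among the other 9 genes described here, Stat3 (0.993) and Jak3 (0.966) were the closest and Jak1 (0.127) the farthest. These values describe libraries that share their group and depth, and most of the spread is the step between the retina groups.

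The other genes of the pathway were taken from lists chosen with earlier results of these data known, and several behaved unlike the 10. Of Socs4 to Socs7, the SOCS genes outside the 10, 0 of 4 were called in the retina, with medians of 0.01 for the list and -0.02 for all genes. In the cultures Socs5 (log2 fold change 0.49 ± 0.07, adjusted p = 1.35e-05) and Socs6 rose. Socs6 (0.22 ± 0.07, adjusted p = 0.0309) lost its call without vesicle library 3 (0.151) or PBS library 1 (0.133) or 2 (0.135). Pim2 and Pim3, the relatives of Pim1, were not called in either comparison.

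**Figure D5:**
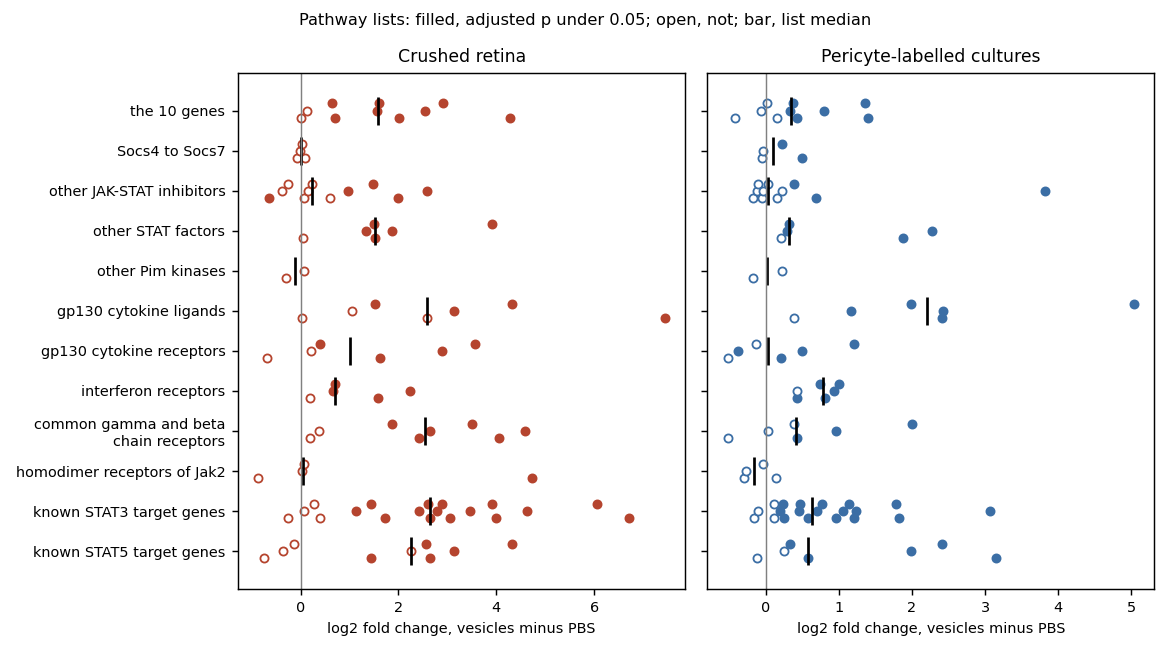
Log2 fold change, vesicles minus PBS (x axes, scaled differently), of tested genes in each pathway list in the crushed retina (left) and the pericyte-labelled cultures (right); filled points were called and bars are list medians. Socs4 to Socs7 and the other Pim kinases lie between -0.30 (Pim2 in the retina) and 0.49 (Socs5 in the cultures), and gp130 ligands reach the largest changes, with Il6 at 7.44 in the retina and 5.04 in the cultures. Il6 had few PBS reads in both, 5 in the retina and 6 in the cultures.

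Among 11 other inhibitors of the pathway, 4 rose in the retina (Ptpn1, Ptpn2, Ptpn6 and Usp18) and Pias3 fell (list median 0.23). Ptpn1, a phosphatase that acts on Jak2 and Tyk2, was at 43.6 ± 7.51 CPM with vesicles and 15.7 ± 3.08 CPM with PBS (SD, n = 3, log2 fold change 1.48 ± 0.18, adjusted p = 0.000845). Ptpn6, the phosphatase SHP-1 of blood cells, was at 17.6 ± 3.95 CPM and 2.91 ± 1.18 CPM (log2 fold change 2.59 ± 0.32, adjusted p = 0.00109). Pias3, a protein that binds Stat3 and blocks it from DNA, fell to 46.6 ± 3.86 CPM with vesicles, against 73.1 ± 6.20 CPM with PBS (log2 fold change -0.65 ± 0.11, adjusted p = 0.00334). In the cultures 3 of the 11 rose and 0 fell (median 0.03, 0.00 for all genes). Usp18, an interferon-induced inhibitor of the type I interferon receptor, was at 129 ± 10.7 CPM with vesicles and 9.12 ± 0.425 CPM with PBS (log2 fold change 3.82 ± 0.08, adjusted p = 1.6e-18). Ptpn2 (0.68 ± 0.10) and Ptpn1 (0.39 ± 0.06) were the other two.

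Upstream, 4 of 7 tested gp130 ligands rose in the retina and 5 of 6 in the cultures, with 0 lower in either and list medians of 2.58 and 2.20. Of the retina calls, that of Clcf1 held in 6 of 10 alternatives and that of Osm in 9 of 10. Clcf1 lost its call without vesicle library 1 (adjusted p = 0.0617) or 2 (0.0548), PBS library 2 (0.057) or both lens-rich libraries (0.0998). Osm lost its call without both lens-rich libraries (0.086). Il6 was at 19.3 ± 10.9 CPM with vesicles and 0.101 ± 0.0919 CPM with PBS in the retina (log2 fold change 7.44 ± 0.70, adjusted p = 0.00085), resting on 5 reads over the PBS libraries. In the cultures Il6 also rose (log2 fold change 5.04 ± 0.56, adjusted p = 8.72e-07), with 6 reads over the PBS libraries. The culture call of Osm (adjusted p = 0.0487, 48 reads with vesicles and 12 with PBS) was not tried in the alternatives. Lif, a cytokine of injured retina, was at 7.58 ± 1.78 CPM with vesicles and 0.377 ± 0.185 CPM with PBS in the retina (log2 fold change 4.31 ± 0.39, adjusted p = 0.000163). In the cultures Lif was at 23.5 ± 3.03 CPM with vesicles and 4.40 ± 0.390 CPM with PBS (log2 fold change 2.41 ± 0.13, adjusted p = 5.11e-12). Clcf1, a ligand of the ciliary neurotrophic factor receptor, was at 99.7 ± 4.63 CPM with vesicles and 44.6 ± 3.68 CPM with PBS in the cultures (adjusted p = 4.36e-11).

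Of 6 tested gp130 receptor genes, 4 rose in the retina and 0 fell (median 1.01), and in the cultures 3 rose and Lifr fell (median 0.04). In the retina Il11ra1 kept its call in 4 of 10 alternatives. Lifr, the leukemia inhibitory factor receptor, had a log2 fold change of -0.38 in the cultures, and its call was lost without vesicle library 1 (adjusted p = 0.0511) or PBS library 2 (0.0625). Osmr, the oncostatin M receptor, was at 176 ± 53.7 CPM with vesicles and 23.6 ± 6.96 CPM with PBS in the retina (log2 fold change 2.90 ± 0.32, adjusted p = 0.00282). In the cultures Osmr was at 105 ± 6.98 CPM with vesicles and 45.6 ± 2.42 CPM with PBS (log2 fold change 1.21 ± 0.07, adjusted p = 1.48e-11). Il6st, gp130 itself, rose in the retina (log2 fold change 1.63 ± 0.19, adjusted p = 0.00157) and, by 0.21 ± 0.06, in the cultures (adjusted p = 0.0144), where the call was lost without vesicle library 3 (0.0883) or PBS library 2 (0.0899) or 3 (0.0873).

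Receptors that signal through the other kinases were tested as well. Of 8 tested common gamma and beta chain receptor genes, 6 rose in the retina (median 2.54) and 3 of 6 in the cultures (median 0.41), with 0 lower in either. Of the culture calls, that of Csf2ra (adjusted p = 0.0406) held in 2 of 10 alternatives (up to 0.142) and was lost without any 1 of the 6 libraries. Il2rg, the common gamma chain that Jak3 binds, was at 5.61 ± 1.11 CPM with vesicles and 1.53 ± 0.726 CPM with PBS in the retina (adjusted p = 0.00735), and in the cultures it had 14 reads with vesicles and 10 with PBS. Csf2rb, the shared beta chain, was at 25.3 ± 7.51 CPM with vesicles and 1.045 ± 0.797 CPM with PBS in the retina (adjusted p = 0.0024), and Csf2rb2 is a close copy that could share its reads. Of the homodimer receptors that use Jak2, only Csf3r, the receptor of the neutrophil growth factor, was called in the retina, 1 of 4 tested, and 0 of 4 were called in the cultures. The retina calls of Csf2rb (adjusted p = 0.0526) and Csf3r (0.0554) were lost without both lens-rich libraries. Interferon receptor genes rose in 4 of 5 tested in the retina (median 0.71) and 5 of 6 in the cultures (median 0.78). Of the retina calls, that of Ifnar1 (adjusted p = 0.0404) held in 4 of 10 alternatives (up to 0.143). It was lost without any 1 library but vesicle library 3, and without both lens-rich libraries (0.0533). The call of Ifngr2 held in 9 of 10 and was lost without both lens-rich libraries (0.0512). Ifngr1, a chain of the interferon-gamma receptor, was at 115 ± 7.37 CPM with vesicles and 57.6 ± 0.614 CPM with PBS in the cultures (log2 fold change 1.00 ± 0.06, adjusted p = 9.87e-11).

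Downstream, 5 of 6 other STAT genes rose in the retina (median 1.52) and 4 of 5 tested in the cultures (median 0.31). The retina call of Stat6 was lost without both lens-rich libraries (adjusted p = 0.0583). That of Stat5a (adjusted p = 0.0473) was not tried in the alternatives, and that of Stat4 rested on 5 reads over the PBS libraries. Among known STAT3 target genes 15 of 19 rose in the retina (median 2.65) and 16 of 20 in the cultures (median 0.63), with 0 lower in either. Timp1, a metalloproteinase inhibitor, was at 551 ± 205 CPM with vesicles and 5.26 ± 0.863 CPM with PBS in the retina (log2 fold change 6.71 ± 0.38, adjusted p = 0.000287). Bcl3, a coactivator of NF-kB, was at 30.0 ± 1.93 CPM with vesicles and 8.77 ± 0.977 CPM with PBS in the cultures (adjusted p = 3.47e-11). Many of these genes also answer to NF-kB, so the list does not mark STAT3 alone. Osmr and Il4ra on it are also counted among the receptors above. Of known STAT5 targets, 5 of 9 rose in the retina (median 2.27) and 5 of 7 in the cultures (median 0.57), where the call of Bcl6 was lost without vesicle library 1 (adjusted p = 0.0567). Among those that moved, Oas1a is best known as an interferon-induced gene, and Lif and Osm are also gp130 ligands, so this list does not mark STAT5 alone. Not called in the retina were Igf1 (log2 fold change -0.36), Bcl2l1 (-0.14), Onecut1 (-0.74) and Ccnd2 (2.27, adjusted p = 0.0561). Bcl2l1 was among those that rose in the cultures (0.33). Medians over all tested genes were -0.02 in the retina and 0.00 in the cultures.

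How reads were shared with overlapping genes bears on a few values, and strand-specific counting is not stated in the labels. In GENCODE M21 the antisense gene Gm26885 covers 14.5% of the exon bases of Pim1 and had 9 counts over all retina libraries and 1 over the cultures. The antisense gene 1700084C06Rik covers 8.07% of Tyk2 exon bases, with 97 counts in the retina and 0 in the cultures. Insl3 lies on the strand of Jak3 and shares 7.55% of its exon bases, with 6 counts in the retina and 43 in the cultures. Socs1, Socs2, Socs3 and Jak2 shared no exon base with another annotated gene.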

How the data were processed

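Total RNA of 12 samples was sequenced. Per the submitters' processing notes, the tools were FastQC 0.11.8, HISAT2 2.0.5, featureCounts 1.5.0-p3 and limma (no version given); no source used here names the genome build. The deposited values are raw counts per gene, with 1 table for retina and 1 for cultures, whose gene sets differ, so levels were not compared across tables. Of the listed genes, 9649 in the retina and 26257 in the cultures had no count in any library. Columns not used numbered 0.

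Each table was fitted alone in R 4.3.3 with edgeR 4.0.16: filterByExpr (minimum count 10), TMM, robust quasi-likelihood F test, 4 residual degrees of freedom, Benjamini-Hochberg adjustment over all genes tested, and a call at adjusted p under 0.05, 2-sided. Each SE was derived from the fold change and its F statistic. edgeR's biological coefficient of variation came to 0.203 (retina) and 0.0818 (cultures). Differences between tables were tested with limma 3.58.1 (voom, 1 weight per table). DESeq2 1.42.0 was an alternative. The tests were tried on simulated counts first. With 3 libraries per group, the smallest 2-sided exact permutation p is 0.1. A count of 3 came to 0.180 to 0.196 CPM in the retina and 0.0778 to 0.0895 CPM in the cultures, which covers counting error only. Replicates differed by more than sampling noise (chi-squared per degree of freedom of at least 6.12), so none was a copy.

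The 10 genes and the lists were chosen with earlier results of these data known. Genes named from lists were called genes in order of p, at most 4 per list and table, and markers set beforehand. Il2rg, Aqp4, S100b, Acta2, Cspg4, Notch3, Cd14, Lyz2, Ccr2, Olfml3, Sall1, P2ry12, Siglech, Kcnj8, Abcc9, Des, Usp18 in the retina, Pim2, Pim3, Socs4 to Socs7 and genes that overlap the 10 were also named outside that rule, as list members of note or to identify a small count. So were Igf1, Bcl2l1, Ccnd2, Onecut1 and Stat5a in the retina, and Fn1, Mmp9 and Osm in the cultures. Exon lengths are from GENCODE M21, which held 32158 retina and 55141 culture gene IDs. No label says that replicate numbers of cultures pair samples, so the main tests were unpaired. Retina columns carry no numbers that the labels match. Results for 2 further listed genes are not reported here.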

Additional observations from a re-analysis of the deposited data

Results flagged for a closer look

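The vesicle effects on 5 genes differed between the crushed retina and the pericyte-labelled cultures in the joint limma test. The difference of log2 fold changes, retina minus cultures, was 3.43 for Socs3, 2.65 for Jak3, 1.65 for Cish, 1.62 for Stat3 and 1.18 for Socs2. All 5 were called in each of the 15 alternatives tried for this test. The highest adjusted p was 0.0325 for Socs3, 0.0323 for Jak3, 0.03 for Cish, 0.00224 for Stat3 and 0.031 for Socs2. Leaving out both lens-rich retina libraries at once was not among these alternatives. Retina vesicle library 3 had the least leukocyte, lens and fibroblast marker mRNA of its group, and the most retinal ganglion cell marker mRNA. It was the lowest for Socs3, Jak3, Cish and Stat3, and not for Socs2. The part of leukocytes in the difference was not tested.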

How the results depend on the processing

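Calls among the 10 genes held in most settings, but for Socs1 in the retina. Its call held in 5 of 10 alternatives (adjusted p up to 0.121). In the cultures 6 were called under all 10 alternatives. In the retina DESeq2, RLE factors and no low-count filter each called 8, leaving out 1 library called 6 to 8, and leaving out the lens-rich library of each group called 5. Counts over all genes in the retina were 2449, 1328 to 2909 without 1 library (1328 without PBS library 2, 1401 and 1381 without vesicle library 1 or 2), and 1420 without both lens-rich libraries, while DESeq2 called 3015. In the cultures they were 3365, and 2412 to 3500 without 1 library. The difference between tables was called for 1668 genes, 1045 to 2151 without 1 library, the lowest without retina PBS library 2. Within each table, the count rose without retina vesicle library 3 (2909) or culture vesicle library 1 (3500), and fell without any other 1 library. The cause of these shifts was not tested.

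Signs turned only for effects that were not called. Jak1 in the retina was at -0.000539 with DESeq2 and -0.000513 with RLE factors, and ran from -0.0329 to 0.0256 without 1 library. Without 1 library, Tyk2 in the retina ran from -0.0218 to 0.234, Cish in the cultures from -0.233 to 0.0883, and Jak1 in the cultures from -0.00107 to 0.0363. The difference between tables then ran from -0.146 to 0.473 for Socs1 and from -0.0894 to 0.00447 for Jak1.

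Same-numbered culture libraries did not deviate together (correlations 0.0183, 0.0274 and -0.0238). No label says whether the numbers pair samples, and weak correlations cannot show that they do not. With a replicate block 3287 genes and 6 of the 10 were called in the cultures. A block was not run in the retina, whose columns carry no numbers that the labels match. Socs1 in the retina and Cish in the cultures rest on few reads.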
